A study of Arabidopsis thaliana with 12 samples.

Results

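The genes described here were those whose expression was lower under supplemental far-red light, at about the same average level at 22 and 26 °C. They were chosen from group means of log2 expression. F is the far-red difference, far-red supplemented minus white light, averaged over both temperatures. T is the temperature difference, 26 minus 22 °C, averaged over both lights. A probe set, the group of array probes that reports a transcript, was a member if F was at most -0.3 and T lay between -0.15 and 0.15. Control probe sets and organelle-encoded genes were left out, and so were DFR and UF3GT, anthocyanin synthesis genes that met both limits. Of 22746 probe sets, 64 were members. A single gene was assigned to 31 of them and several genes to 3, while 30 are unnamed here.

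The samples were aerial parts of wild-type Columbia seedlings of Arabidopsis thaliana, 10 days old, with no mutant or transgene in any group. Before treatment all plants were kept at 22 °C under uninterrupted white light for 9 days. They then spent 24 h in white light (WL) or in white light with added far-red light (WFR), at 22 or 26 °C. Each of the 4 conditions was measured on 3 arrays from biological replicates, 12 in all. The labels do not say whether replicates were separate sowings, so p-values measure only the spread between these samples, which may be partly technical.

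Plants read the ratio of red to far-red light through phytochromes. Light rich in far-red, as reflected by neighbouring leaves, converts phytochrome B to its inactive form. This releases PIF transcription factors, which raise auxin synthesis and elongation growth, while investment in leaf pigments and in defence tends to decline. Phytochrome B also loses its active form faster in the warmth, so the light and temperature responses share this receptor.

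The label given to these genes, lowered by far-red and unmoved by warmth, held for the averages by the rule, and in each condition for some members. In 21 of 64 the temperature difference was within 0.15 in size in both lights, and 9 of these, Fes1B and CSLA03 among them, were also lower with far-red light by 0.3 or more at both temperatures. F and T are means over conditions, so a member can be lower with far-red light mainly at 1 temperature, and its temperature differences can be opposite in the lights and cancel. In the other 43 members the temperature difference exceeded 0.15 in size in at least 1 light. In 15 of them it did so in both lights with opposite signs. Of the 64, 62 had lower means with far-red light at both temperatures, but only 18 were lower by 0.3 or more at both. The thionin gene AT1G66100, given as an example with the rule, did not meet it. Its F was -0.75 and its T 0.34, so it was higher at 26 °C and is not counted as a member.

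**Figure D1:**
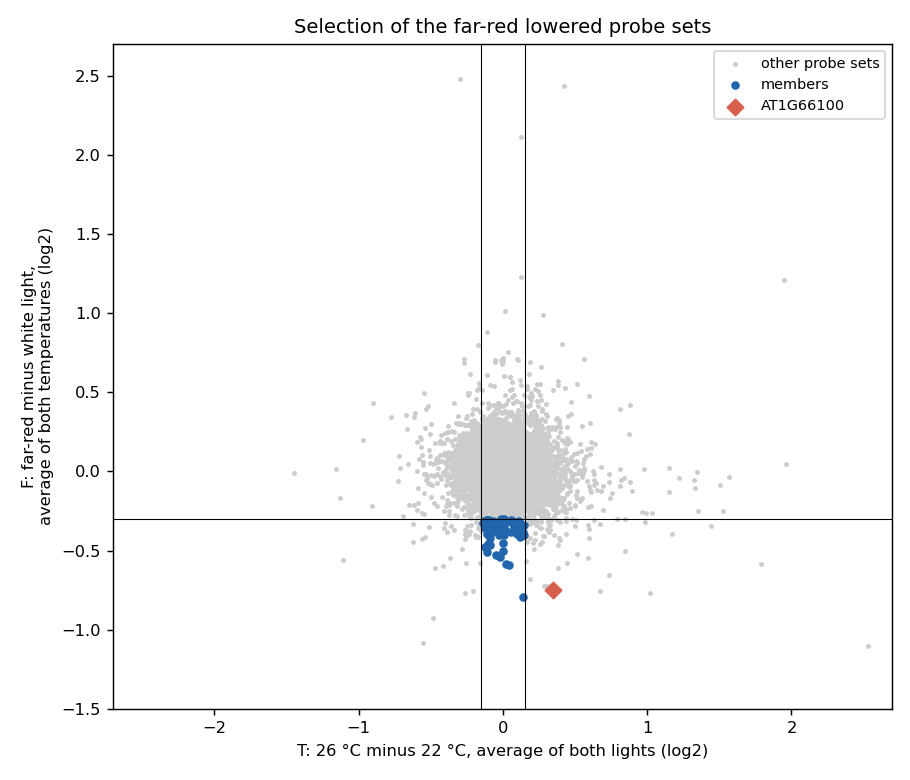
Each point is 1 of 22746 probe sets, with T on the horizontal axis and F on the vertical axis, both as log2 differences; lines mark the limits of the rule at F = -0.3 and T = -0.15 and 0.15. The 64 members (blue) lie in the strip below the horizontal line, and AT1G66100 (diamond) lies to the right of it at T = 0.34.

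Because F and T chose the members, far-red and average temperature differences are given as descriptions without tests, and "lower" below describes group means. Members had F from -0.79 to -0.30 with a median of -0.36, against a median of 0.0087 over all probe sets. In linear terms the named members were 1.23 to 1.5 times lower on average. Another 107 probe sets met the limit on F but were not members. Of these, 65 had T above 0.15, 40 had T below -0.15 and 2 were the anthocyanin genes left out by name. In limma, 19 members were called lower for the average far-red effect at an adjusted p under 0.05, among 0.295% of all probe sets. The rule used this contrast, so nothing further is read from the count.

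Gene by gene, the arrays were often separate. All 3 far-red arrays lay below all 3 white-light arrays at 22 °C in 30 of 64 members (7.52% of all probe sets), at 26 °C in 34 (5.17%), and at both temperatures in 15 (0.822%). These counts also follow from the rule. The 9 named genes separated at both temperatures were AT1G23390, AT4G33666, AT5G02160, AT3G56010, Fes1B, AT5G59080, AT3G52240, AT3G52480 and AT5G56100. In bulk tissue, fewer cells of a type and less RNA per cell cannot be told apart.

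**Figure D2:**
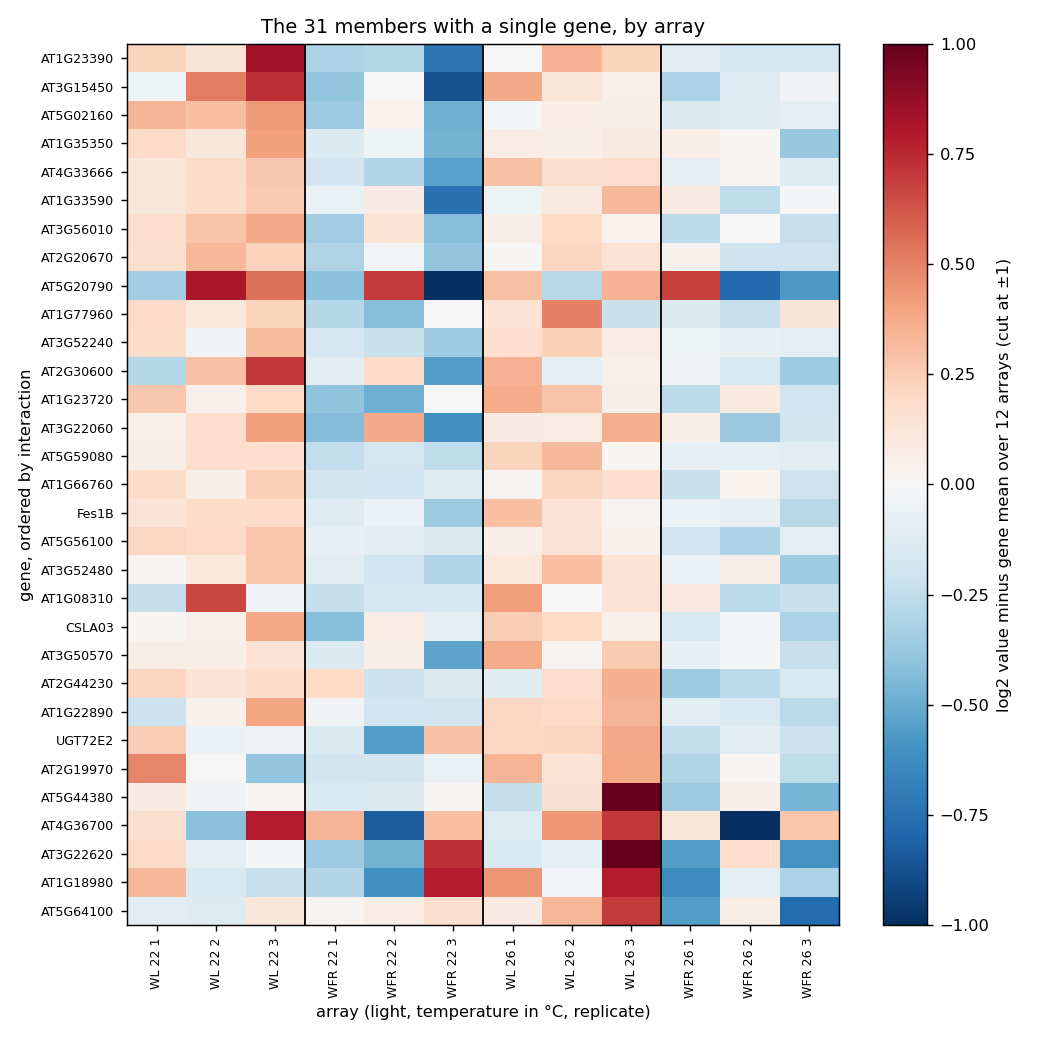
Rows are the 31 members with a single gene, ordered by the interaction from most positive (top) to most negative (bottom), and columns are the 12 arrays; colour is the log2 value minus the gene's mean over all arrays. White-light arrays are mostly red and far-red arrays mostly blue, but several rows near the bottom, AT3G22620 and AT1G18980 among them, are also red in WFR 22 °C replicate 3.

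Among genes of protein turnover and folding, AT1G23390 had the lowest F of the named members, at -0.59. It encodes a Kelch-repeat F-box protein that targets chalcone synthase, the entry enzyme of flavonoid synthesis, for degradation. Its log2 values at 22 °C were 9.32, 9.23 and 9.94 in white light and 8.79, 8.82 and 8.37 with far-red light. At 26 °C they were 9.11, 9.44 and 9.32 in white light and 9.00, 8.93 and 8.93 with far-red light. The lights did not overlap at either temperature, and the gene was 1.79 times lower with far-red light at 22 °C and 1.27 times lower at 26 °C. Its temperature difference was -0.21 in white light and 0.29 with far-red light, which nearly cancel in T (0.04).

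Fes1B encodes a nucleotide exchange factor of HSP70 chaperones. Its values were 7.91, 7.96 and 7.97 in white light and 7.65, 7.71 and 7.42 with far-red light at 22 °C. At 26 °C they were 8.07, 7.92 and 7.80 against 7.71, 7.69 and 7.50. The differences were -0.36 and -0.30, and the lights did not overlap at either temperature.

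AT2G30600 encodes a BTB/POZ domain protein, of a family that includes substrate adaptors of ubiquitin ligases. It had 2 probe sets. The member had group means of 8.39 ± 0.501 (WL) and 7.99 ± 0.373 (WFR) at 22 °C and 8.25 ± 0.225 and 7.97 ± 0.165 at 26 °C (SD, n = 3 each), with F of -0.34 and T of -0.08. The other gave F of -0.38 and lay just outside the T limit at -0.1522. In both the lights overlapped at 22 °C. At 26 °C they overlapped in the member and were separate in the other probe set.

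The genes AT3G15450 and AT2G20670 are known from work on seedlings in darkness or short of sugar, where their transcripts accumulate. AT3G15450 encodes an aluminium-induced protein with YGL and LRDR motifs, and AT2G20670 a DUF506 family protein. AT3G15450 had values of 9.09, 9.64 and 9.87 in white light and 8.73, 9.12 and 8.25 with far-red light at 22 °C. At 26 °C they were 9.50, 9.25 and 9.18 against 8.81, 9.00 and 9.09. It was 1.77 times lower at 22 °C, where 1 array of each light crossed, and 1.27 times lower at 26 °C, where the lights were separate. AT2G20670 had values of 7.35, 7.51 and 7.42 against 6.89, 7.16 and 6.79 at 22 °C, and 7.20, 7.40 and 7.33 against 7.23, 6.98 and 6.98 at 26 °C. Here the lights were separate at 22 °C and overlapped at 26 °C through WFR replicate 1. These 2 genes, AT5G02160 and AT3G56010 were the 4 named members that met the rule whichever of the 12 arrays was left out.

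**Figure D3:**
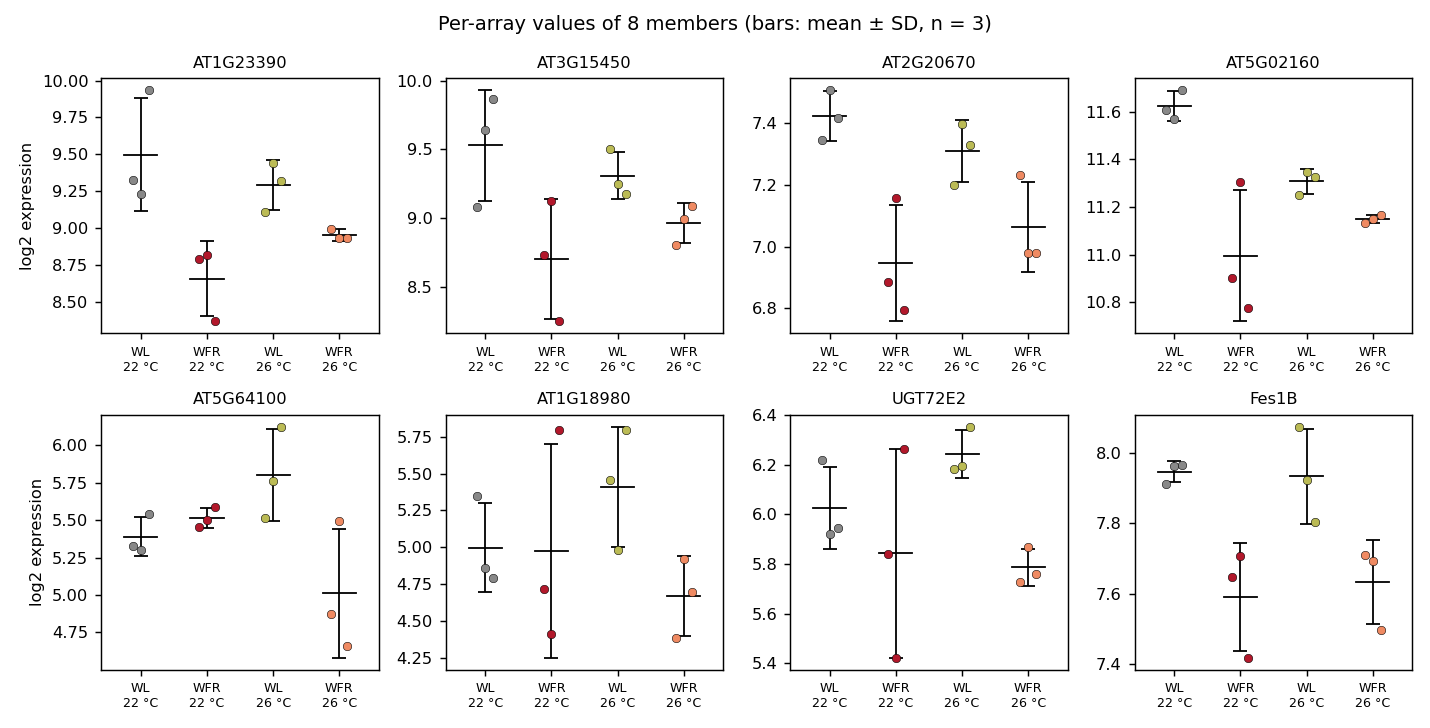
Log2 expression of 8 members by condition, with each array as a point and bars for the mean and SD (n = 3); vertical axes differ and do not start at 0. In AT1G23390, AT5G02160 and Fes1B all far-red points lie below all white-light points at both temperatures, while in AT5G64100 they do so at 26 °C alone.

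Of 6 genes of the cell wall and of lignin, none had a difference larger at 22 °C by 0.2 or more, and 3 had one larger at 26 °C. Over all 31 named members, 9 had one larger at 22 °C and 8 had one larger at 26 °C. The limit of 0.2 was chosen after the values were seen, and the role groups with earlier results known. Leaving out 1 array brought the interaction, the difference at 26 °C minus that at 22 °C, to -0.098 in AT5G44380 and -0.062 in UGT72E2. In AT5G64100 it stayed at -0.74 or below. AT5G64100, a class III peroxidase gene of the type that cross-links wall polymers, had the most negative interaction of the named members. Its values at 22 °C were 5.33, 5.30 and 5.54 in white light and 5.46, 5.50 and 5.59 with far-red light. At 26 °C they were 5.51, 5.77 and 6.12 against 4.88, 5.50 and 4.66. The far-red difference was thus 0.13 at 22 °C and -0.79 at 26 °C, and at 26 °C the lights did not overlap.

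UGT72E2 encodes a glucosyltransferase of monolignols, the building blocks of lignin. Its values were 6.22, 5.92 and 5.94 against 5.84, 5.42 and 6.27 at 22 °C, and 6.18, 6.19 and 6.35 against 5.73, 5.87 and 5.76 at 26 °C. The lights overlapped at 22 °C, where WFR replicate 3 was above every white-light array, and were separate at 26 °C. AT5G44380, of the berberine bridge enzyme family of flavin oxidases, had far-red differences of -0.11 and -0.58, and its white-light array WL 26 °C replicate 3 stood at 6.64 against 5.32 and 5.71 for the others.

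In the other 3 wall genes the differences at the temperatures lay within 0.2 of each other. AT1G23720, a proline-rich extensin-like gene, had values of 5.39, 5.17 and 5.32 against 4.72, 4.63 and 5.12 at 22 °C, and 5.49, 5.41 and 5.18 against 4.86, 5.21 and 4.92 at 26 °C. It differed by -0.47 at 22 °C, where the lights were separate, and by -0.36 at 26 °C, where they overlapped. Its probe set is of a kind that can bind transcripts of related genes. CSLA03, of the glucomannan synthase family, differed by -0.30 and -0.33, and AT3G50570, a hydroxyproline-rich glycoprotein gene, by -0.29 and -0.33.

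Of 6 genes for secreted or cell-surface proteins, 4 had a far-red difference larger at 26 °C by at least 0.2, against 8 of all 31 named members. Most of these depended on single arrays. Leaving out 1 array brought the interaction to -0.141 in AT3G22620, -0.075 in AT2G19970 and 0.0998 in AT4G36700. In AT1G18980 it stayed at -0.31 or below. AT1G18980, a germin-like gene of the cupin superfamily, had values of 5.35, 4.86 and 4.79 against 4.72, 4.41 and 5.79 at 22 °C. At 26 °C they were 5.46, 4.98 and 5.79 against 4.38, 4.92 and 4.70. The differences were -0.02 and -0.74, and WFR 22 °C replicate 3 was above every white-light array of that temperature. AT3G22620, of the lipid-transfer protein family, had differences of -0.06 and -0.66. It stood at 6.29 in WFR 22 °C replicate 3 against 5.20 and 5.08 in the others, and at 6.80 in WL 26 °C replicate 3 against 5.41 and 5.46.

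AT4G36700, another cupin family gene, had the largest SD among the named members, 1.12 in WFR at 26 °C. Its values were 8.64, 8.06 and 9.27 against 8.83, 7.65 and 8.78 at 22 °C and 8.35, 8.92 and 9.19 against 8.61, 6.75 and 8.76 at 26 °C. Its F of -0.51 rested largely on WFR 26 °C replicate 2, and F ranged from -0.69 to -0.19 when 1 array was left out. AT2G19970, of the family of secreted CAP proteins that includes PR-1, differed by -0.18 and -0.47. AT3G22060, a cysteine-rich repeat secretory protein gene, differed by -0.43 and -0.34, and AT1G33590, a leucine-rich repeat protein gene, by -0.43 and -0.19.

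Among genes of transport and metabolism, AT1G35350, of the PHO1 family of phosphate exporters, differed by -0.45 at 22 °C and -0.18 at 26 °C. AT1G66760, a MATE family efflux carrier gene, had F of -0.3004, the value nearest to the limit, with differences of -0.33 and -0.27. Its values were 7.42, 7.30 and 7.48 against 7.05, 7.04 and 7.11 at 22 °C, where the lights were separate, and 7.27, 7.45 and 7.40 against 7.01, 7.27 and 7.03 at 26 °C. AT1G08310, an alpha/beta hydrolase gene, differed by -0.33 and -0.32.

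For 11 named members no role is given. AT5G02160 had values of 11.61, 11.57 and 11.69 against 10.90, 11.31 and 10.78 at 22 °C, and 11.25, 11.35 and 11.33 against 11.13, 11.15 and 11.17 at 26 °C. The lights were separate at both temperatures. Its temperature difference was -0.31 in white light and 0.15 with far-red light.

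AT4G33666 had values of 10.56, 10.63 and 10.71 against 10.25, 10.15 and 9.90 at 22 °C, and 10.74, 10.60 and 10.61 against 10.35, 10.46 and 10.31 at 26 °C. Its F was -0.40 and its T 0.1463, just inside the limit. AT3G56010 had values of 10.03, 10.13 and 10.23 against 9.50, 9.98 and 9.43 at 22 °C, and 9.91, 10.05 and 9.88 against 9.59, 9.85 and 9.62 at 26 °C. In both genes the lights were separate at both temperatures.

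AT5G59080, AT3G52240, AT3G52480 and AT5G56100 had differences of -0.40 to -0.33 at 22 °C and of -0.30 to -0.23 at 26 °C, with no overlap between the lights. AT5G56100, for instance, had values of 8.30, 8.29 and 8.38 against 8.02, 7.99 and 7.95 at 22 °C. AT5G20790 differed by -0.57 and -0.34 with SDs of 0.345 to 0.861, so that its lights overlapped at both temperatures. AT1G22890 and AT2G44230 had the larger difference at 26 °C, at -0.42 and -0.40 against -0.21 and -0.23. AT1G77960 had F of -0.31 at the probe set that made it a member and 0.01 at its other probe set, so these disagree.

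The 33 members without a single gene had a median F of -0.38. The lowest F of all, -0.79, belonged to an unnamed probe set with values of 9.59, 8.65 and 10.70 against 9.49, 10.09 and 6.42 at 22 °C, and 8.84, 9.12 and 10.82 against 7.99, 10.42 and 8.56 at 26 °C. The lights overlapped at both temperatures. Without WFR 22 °C replicate 3, the array at 6.42, its F was -0.23 and its difference at 22 °C was 0.14. It met the rule in 2 of the 12 cases with 1 array left out. Of the 33, 9 were called lower for the average far-red effect (0.295% of all probe sets). All far-red arrays lay below all white-light arrays in 15 at 22 °C (7.52% of all) and in 15 at 26 °C (5.17%). These counts too follow from the rule, so nothing is read from them. The 30 without a gene in the annotation could not be checked against the list of organelle genes.

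Just outside the limit on F lay AT1G65500 at -0.2975 and AT1G17860 at -0.2933. Just inside it lay AT1G66760 at -0.3004 and AT5G56100 at -0.3077. AT4G12500, with F of -0.58, was kept out by T of -0.16, and AT2G44230 was inside with T of -0.12.

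The interaction, the far-red difference at 26 °C minus that at 22 °C, is a contrast that the rule did not use, and it was tested. Its estimate is independent of F and T in this balanced design only if all conditions have the same spread. In AT5G02160, for instance, the SD was 0.276 in WFR at 22 °C and 0.018 to 0.063 in the other conditions. The choice by F may therefore have affected the counts of members below. In limma, 0 of 64 members and 0 of 22746 probe sets were called at an adjusted p under 0.05 (0% of all), with a lowest adjusted p of 0.902 among members and 0.0891 over all. At an unadjusted p under 0.05, 7 members (10.9%) stood against 1254 probe sets (5.51%). The fit with array weights called 2 probe sets, of which 0 were members. The 3 named members among the 7 were AT5G64100 at -0.92 ± 0.253, AT5G02160 at 0.47 ± 0.148 and AT1G23390 at 0.50 ± 0.228 (SE; limma, adjusted p = 0.902 for each). A difference between the temperatures was thus not shown for any member. The median SE was 0.222 among members and 0.12 over all probe sets, and the median size of the interaction 0.232 and 0.0868.

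As a description, the members can be laid out by the size of the interaction, with a limit of 0.2 chosen after the values were seen. In 19 members the far-red difference was larger at 22 °C, with medians of -0.57 at 22 °C and -0.22 at 26 °C. Their median level was 9.10 on the log2 scale, and 9 are named. In 18 members it was larger at 26 °C, with medians of -0.16 and -0.63, a median level of 5.93, and 8 named genes. The other 27, with 14 named genes, had medians of -0.40 and -0.32. Because T was held near 0, most of these members had temperature differences of opposite sign in the lights, 18 of the 19 and 17 of the 18. In the 19 the median temperature difference was -0.20 in white light and 0.17 with far-red light, and in the 18 it was 0.24 and -0.24.

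**Figure D4:**
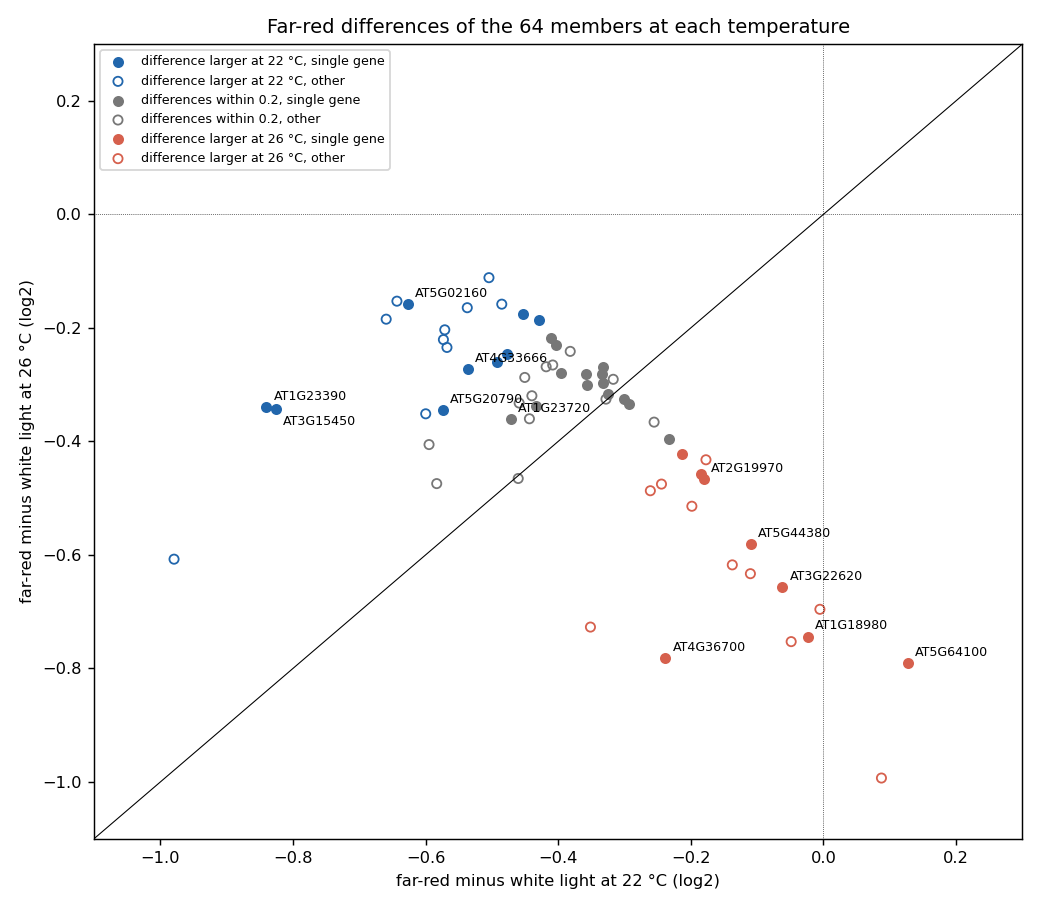
Far-red difference of each of the 64 members at 22 °C (horizontal) and 26 °C (vertical), in log2 units; filled points have a single gene, colours give the shape, and the diagonal marks equal differences. AT1G23390 and AT3G15450 lie far above the diagonal, AT5G64100 and AT1G18980 far below it.

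The rule does not use how arrays of the same condition deviate from their mean. Over these 12 deviations, the mean pairwise correlation was 0.272 among the 19 members with larger differences at 22 °C, 0.311 among the 18 with larger differences at 26 °C and -0.146 between the sets. Over all probe sets it was 0.0222. The deviations share arrays and normalisation, and the sets were drawn up after the values were seen. The sets were also split by the interaction of group means, which a stray array shifts. Such a split can by itself give shared deviations within a set and opposite ones between sets. Nothing further is therefore read from these correlations. WFR 22 °C replicate 3 stood apart. There the 19 were 0.366 below and the 18 were 0.301 above their condition means. Without it, the correlation among the 19 was 0.0821 and that between the sets 0.00278, while that among the 18 was 0.30.

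This array also set much of the contrast at 22 °C. Without it, the median far-red difference at 22 °C was -0.43 in the 19 (-0.57 with it) and -0.32 in the 18 (-0.16 with it). In WL 26 °C replicate 3 the 18 were 0.346 above their condition mean. Without that array their median difference at 26 °C was -0.42, against -0.63 with it. The members with unadjusted p under 0.05 for the interaction numbered 3 without WFR 22 °C replicate 3 and 17 without WFR 22 °C replicate 2.

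Root markers were examined because the tissue was labelled as aerial. Of 21 written, 3 had a named probe set, EXPA7, EXPA18 and PYK10. Their mean level was 7.18 to 7.45 in WL and 7.20 to 7.71 in WFR at 22 °C, and 7.43 to 7.61 and 7.22 to 7.40 at 26 °C. The highest of these, 7.71, was in WFR 22 °C replicate 3, and the highest at 26 °C, 7.61, in WL 26 °C replicate 3. The mean combines PYK10, at 11.49 to 12.28, with EXPA7 and EXPA18, at 4.78 to 5.65. It is thus no measure of the share of root tissue. EXPA18, a root hair expansin, had 5.65 in WFR 22 °C replicate 3 against 5.20 and 4.78 in the other arrays of the condition. EXPA7 had 5.37 against 4.83 and 4.80, and PYK10, an ER-body glucosidase, had 12.12 against 11.71 and 12.02. In WL 26 °C replicate 3, EXPA18 had 5.42 against 5.33 and 5.35, and EXPA7 had 5.13 against 4.92 and 5.10. PYK10 had 12.28 in that array against 12.05 and 12.09. The part of these markers in the values of the 18 members was not tested.

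**Figure D5:**
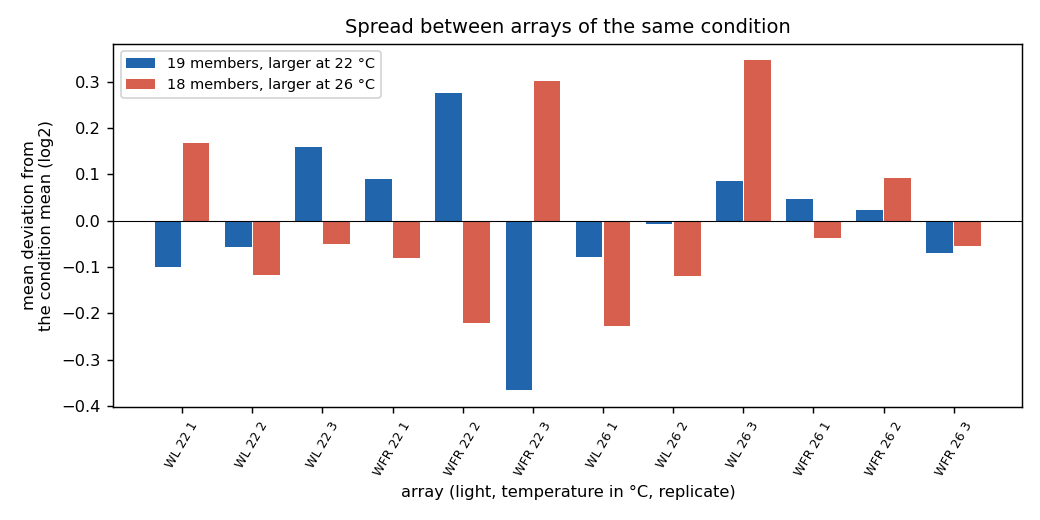
Bars give, for each of the 12 arrays, the mean log2 deviation from the condition mean over 19 members with larger differences at 22 °C (blue) and 18 with larger differences at 26 °C (red). In WFR 22 °C replicate 3 the bars point in opposite directions, at -0.366 and 0.301.

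The genome neighbours of the members were examined by the order of genes in RefSeq. Of the 31 named genes, 22 had at least 1 directly neighbouring gene with a named probe set, giving 30 neighbours. Their median F was -0.01, and 0 of them reached -0.3. The lowest, at -0.29, was AT1G33600, which lies next to AT1G33590, a leucine-rich repeat gene among the members. Its T was -0.11.

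Most of 29 written gene lists had few named probe sets, and AT1G23390 was the only member in any of them. The list of senescence and F-box genes that holds it had 3 of 20 genes measured, of which it alone was called lower for the average far-red effect (background 0.295%). As a member AT1G23390 was chosen by this same contrast, so nothing is read from that call. Median F was -0.11 over chlorophyll synthesis genes (8 of 25 measured) and -0.07 over light-harvesting and photosystem genes (7 of 41 measured). In limma 0 of either list were called, with 3 of 8 and 2 of 7 genes lower at an unadjusted p under 0.05, against 5.13% of all probe sets. Over cold response genes (6 of 20 measured) the median F was -0.24. In limma these had 0 calls and 3 of 6 genes lower at an unadjusted p under 0.05 (5.13% of all). The lowest, COR15B, had T of -0.51, well outside the limit. These lists are among 26 with a measured gene, and medians of others were positive. Among those were auxin response at 0.215 (8 of 39 measured) and starch and sugar at 0.0967 (7 of 31 measured). The median over all 13286 genes with a named probe set was 0.0082.

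Log2 values ran from 3.34 to 14.8 and array medians from 6.91 to 7.01, with correlations across probe sets of 0.99526 to 0.99786 within conditions. Members had mean levels of 4.39 to 12.6, with 25 below the median of all probe sets and 2 below its lower quartile. Arrays give no read depth, so their number limits the precision.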

How the data were processed

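Expression was deposited as log2 values, 1 per probe set and array. The submitters' processing notes list RMA, affy and MAS5 with no version or role, so the step that made these log2 values cannot be stated. After leaving out 64 controls from 22810 rows, 22746 probe sets were tested. Genes came from the platform annotation, updated through RefSeq records of TAIR10.1, which served for names and gene order only: 13513 probe sets had a single gene, 503 several and 8730 none here. The limma model (3.58.1, R 4.3.3; lmFit, eBayes) had 1 mean per condition, 8 residual and 5.99 prior degrees of freedom, two-sided tests and Benjamini-Hochberg adjustment over 22746 probe sets. It was checked on simulated data with independent errors of equal spread in all conditions. The arrays here shared deviations, so nothing is read from that check. Genes are named if among the 20 lowest F, the 4 next largest interactions, a gene list, or the values nearest each limit. AT3G52240, AT3G52480, CSLA03 and AT3G50570 were added after their values were seen. Members, lists, role groups and tests were chosen with earlier results of these data known. No sequences were used here.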

Additional observations from a re-analysis of the deposited data

How the results depend on the processing

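The rule gave 101 members with array medians subtracted, 39 without the probe sets below the median level and 17 with F at most -0.4, against 64. Subtracting medians lowered F by the same amount in every probe set, so more of them met the limit. The median F of all probe sets moved from 0.0087 to -0.0377, and the 101 held all 64. Leaving out 1 array in turn gave 48 to 85 members, of which 34 to 56 were among the 64. The 34 came without WFR 22 °C replicate 3, and 9 of the 64 were kept in every case. Probe sets called lower for the average far-red effect numbered 67, against 150 with medians subtracted, 212 with array weights, 43 with a replicate block and 23 to 74 without 1 array. The members among those called numbered 19, against 29 with array weights and 5 to 19 without 1 array. The interaction had 0 calls, against 2 with array weights, of which 0 were members. Its members at an unadjusted p under 0.05 numbered 7, against 11 with medians subtracted, 12 with a variance trend and 3 to 17 without 1 array. Apart from the shift in F with medians subtracted and the fewer probe sets left by the stricter limits, the cause of these changes was not tested. Of 31 named F values, 0 changed sign with other normalisations, low probe sets left out or 1 array left out. The rule chose these genes for a negative F, so nothing is read from that count. Under the same settings 12 of 31 named interactions changed sign. Single genes were not recomputed with group medians or array weights. Same-numbered arrays did not deviate together, with 18 correlations from -0.26 to 0.12 and 1 over 0.1, so the replicate block rests on a number alone. It changed no interaction call. The comparison of promoter motifs was not run. The values without WFR 22 °C replicate 3 and WL 26 °C replicate 3 for the members larger at 1 temperature, and for the member with the lowest F, were chosen after seeing the data.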
